A study of Homo sapiens with 6 samples.

Results

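The eukaryotic translation initiation factors are the proteins that bring an mRNA, the initiator tRNA and both ribosomal subunits together at a start codon. Their genes were taken from the deposited gene table by name, as every row whose symbol starts with EIF and a digit from 1 to 6, without the EIF2AK kinases. This gave 52 of 17269 genes, of which 50 had enough counts to be tested. EIF1AY, which lies on the Y chromosome, and EIF4EBP3 had too few counts for a test.

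RNA with poly(A) tails from HCT116, an established line of human colorectal cancer cells grown in RPMI1640 with serum and antibiotics, was sequenced in 6 libraries. The 3 control libraries (shCtrl) carry the genotype label WT, while their titles name a control hairpin. The other 3 (shPRSS22) are labelled as knockdown of PRSS22, a gene for a trypsin-like serine protease. The labels give neither the hairpin sequence nor the time after its introduction, and do not say whether replicates were separate cultures or clones, so each p-value speaks of the spread among these libraries alone, be it biological or technical.

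In canonical initiation, eIF2 carries the initiator tRNA to the small ribosomal subunit together with GTP, and eIF2B reloads eIF2 with GTP afterwards. The subunits of eIF3 form a scaffold on the small subunit, eIF1 and eIF1A hold it open for scanning, eIF5 triggers GTP hydrolysis by eIF2 once the start codon is found, and eIF5B joins the large subunit. eIF4F, made of the cap-binding protein eIF4E, the scaffold eIF4G and the RNA helicase eIF4A, recruits the capped mRNA. The eIF4E-binding proteins, which are phosphorylated by mTORC1, block the contact of eIF4E with eIF4G.

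Library totals lay between 14920539 and 15466657 estimated counts, and the initiation factors took 1.31% to 1.36% of them. PRSS22 was measured at 10.1, 9.38 and 10.1 CPM (counts per 1000000) in shCtrl replicates 1 to 3 and at 3.09, 3.16 and 2.61 CPM in shPRSS22 replicates 1 to 3, a log2 fold change of -1.74 (SE 0.135, adjusted p = 4.78e-12). Epithelial markers were at high levels in both groups (EPCAM 344 and 348 CPM, KRT8 1431 and 1413 CPM, in shCtrl and shPRSS22), and of the 6 tested CDH1 rose (log2 fold change 0.15) and the other 5 did not pass, with VIL1 too low to test and CDX1 without a row. Of 10 markers of immune, endothelial and stromal cells, 9 had a row, 3 were tested (VWF, COL1A1 and ACTA2), none passed, and none was at 0 in all 6 libraries. The summed level of these 9 was 30.8 to 39.4 CPM in shCtrl and 36.6 to 41.9 CPM in shPRSS22, most of it COL1A1, and PTPRC and DCN were at 0 in every shCtrl library. The summed level of 7 genes of cycling cells was 216, 221 and 192 CPM in shCtrl and 239, 237 and 179.6 CPM in shPRSS22, lowest in shPRSS22 replicate 3. Among them MCM2 (log2 fold change -0.42) and MCM5 (-0.39), which encode replicative helicase subunits, fell, and the other 5 did not pass. These others were all above 0: TOP2A (0.44), MKI67 (0.29), CCNB1 (0.24), PLK1 (0.20) and PCNA (0.02). The part of these marker levels in the results that follow was not tested.

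The factors differed widely in level in the control cells. On the deposited TPM scale, which corrects for transcript length, 27 of the 52 genes reached 100 TPM in shCtrl. EIF3E led with 872 ± 12.9 TPM (SD, n = 3), followed by EIF4A1 at 752 ± 6.84, EIF5A at 731 ± 9.18 and EIF1 at 720.0 ± 7.88 TPM. The shCtrl ranges of EIF5A and EIF1 overlapped, though EIF5A was above EIF1 within each shCtrl library. EIF4A1 lay above both in each shCtrl library. EIF4B (632 TPM) and EIF4A2 (590.4 TPM) came next. Leaving aside EIF3CL, EIF4EBP3 and EIF1AY, the lowest were EIF5A2 (8.25 TPM), EIF5AL1 (6.37 TPM), EIF2S3B (2.27 TPM) and EIF4E1B (0.610 TPM).

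Genes whose proteins sit in one complex were not at one level. Within eIF3, transcript levels in shCtrl ran from 50.9 ± 0.458 TPM for EIF3F to 872 TPM for EIF3E, leaving aside EIF3CL, a near copy of EIF3C. The low end depends on the length correction. In CPM, which has none, EIF3F was at 212 in shCtrl, above EIF3G (113.5), EIF3K (97.4) and EIF3J (77.8). Within eIF2, EIF2S3 (gamma subunit) was at 322 ± 3.30 TPM, EIF2S2 (beta subunit) at 278 ± 3.92 TPM and EIF2S1 (alpha subunit) at 59.05 ± 3.32 TPM. The 5 subunit genes of eIF2B lay lower, from 11.7 ± 0.346 TPM for EIF2B2 to 34.6 ± 0.602 TPM for EIF2B4. Which of these genes stand at the ends also depends on the length correction. In CPM the shCtrl ranges of EIF2B2 and EIF2B4 overlapped. The lowest shCtrl mean was then that of EIF2B3 (13.06 CPM) and the highest that of EIF2B5 (41.3 CPM).

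**Figure D1:**
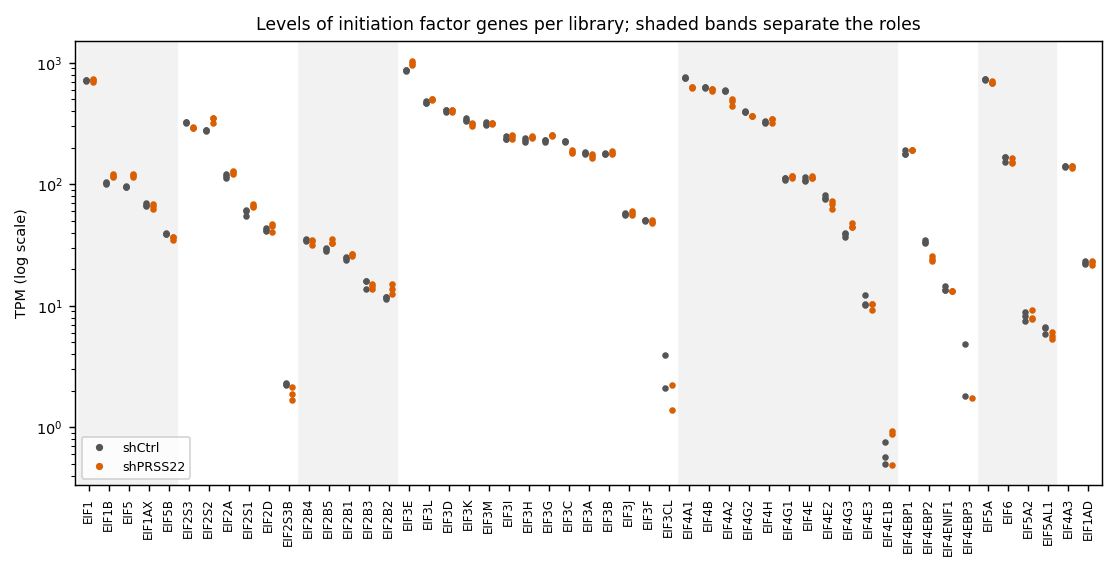
Level of each initiation factor gene in TPM on a log axis, 1 point per library (grey shCtrl, orange shPRSS22), ordered within each role by the shCtrl mean; shaded bands separate the roles, values of 0 cannot be drawn and EIF1AY is left out. EIF3E is highest at 872 TPM in shCtrl and EIF4E1B has the lowest shCtrl mean of those drawn, 0.610 TPM, and for most genes the points of both groups lie close together.

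Knockdown of PRSS22 went with small changes in both directions, spread over the roles. In edgeR's quasi-likelihood test, adjusted over 13104 genes with a threshold of 0.05, 10 of the 50 tested factors were higher in shPRSS22 and 10 were lower, and 30 did not pass. Called factors were 40% of those tested, where 39.1% of all tested genes were called. By direction, 20% of factors were higher against 19.9% of all genes, and 20% lower against 19.3%. The groups did not overlap for 23 factors, 46% of those tested, against 48.6% of all genes. The share of factors that passed in this test was thus near that of the transcriptome. Under DESeq2 a larger share of the factors passed (10 higher and 8 lower of 50) than of all genes (1886 and 1726 of 13104). All 20 called factors are among these 23, so a lack of overlap does not set one called factor apart from another. For EIF2B1, EIF2S3B and EIF4G1 the groups did not overlap although the test was not passed. In the authors' deposited table, 9 factors with a positive and 8 with a negative fold change had q-values under 0.05, and each of them passed here with the same sign.

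Changes among the called factors were small. Among called genes the median size of the log2 fold change was 0.18 for the factors and 0.25 for all genes. Among all tested, called or not, it was 0.089 for the factors and 0.14 for all genes. EIF5, which rose, and EIF4EBP2, EIF4A2 and EIF3C, which fell, were the 4 factors (8% of those tested) both called and more than 1.2-fold apart between the groups, which held for 18.2% of all tested genes. The median log2 fold change was -0.02 over the 50 factors and -0.01 over all genes. In bulk RNA, a change in the make-up of the culture and a change of RNA per cell cannot be told apart.

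**Figure D2:**
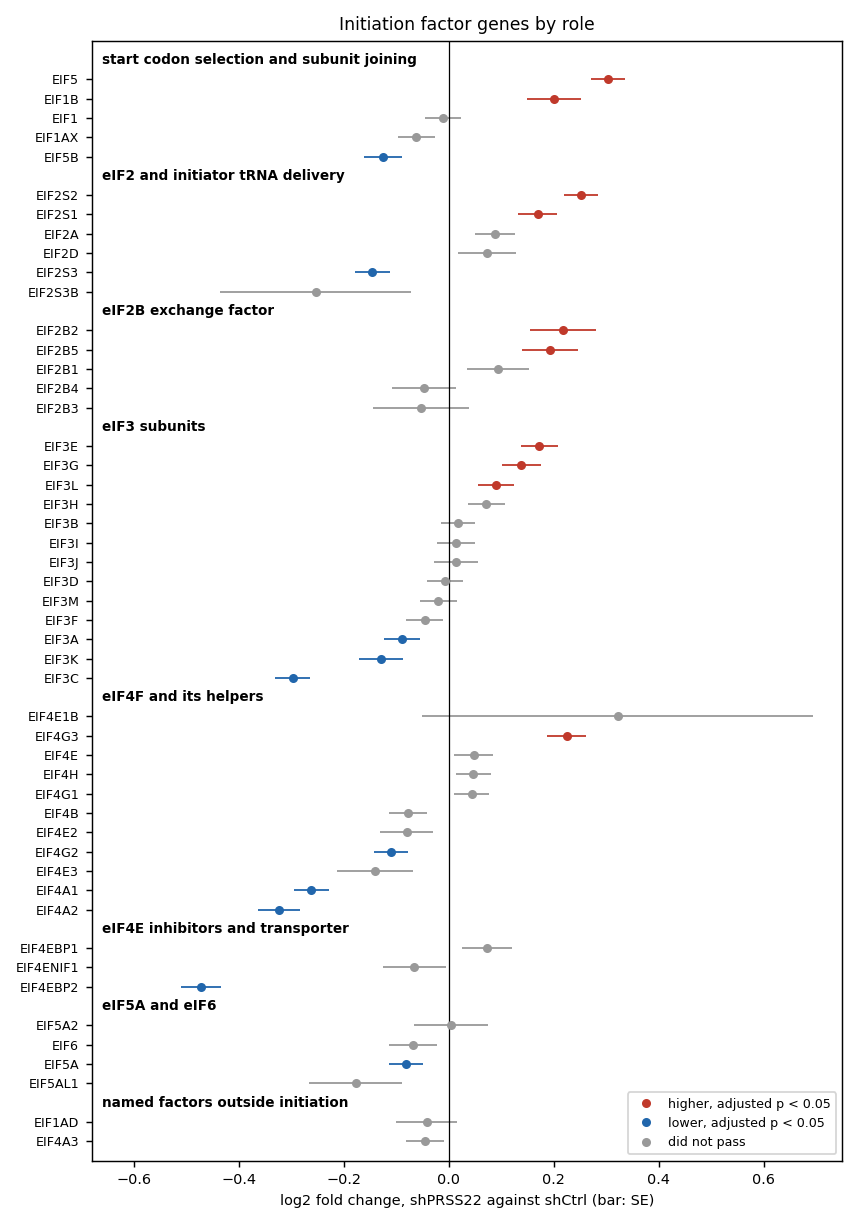
Log2 fold change of each tested initiation factor gene, shPRSS22 against shCtrl, by role, with bars of 1 SE; red marks genes that were higher, blue lower and grey those that did not pass an adjusted p of 0.05, and EIF3CL is left out for its wide error. Called genes reach from -0.47 (EIF4EBP2) to 0.30 (EIF5), and red and blue points stand side by side in 4 roles.

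Promoter sequence from 250 bases before to 50 after the start annotated by RefSeq (GRCh38.p14) was found for 44 of the 52 genes, and not for EIF2S2, EIF3A, EIF3CL, EIF3E, EIF3G, EIF3H, EIF3L and EIF4EBP1. A single start was read per gene, and any other starts of the gene were not searched. A start at a C followed by at least 4 further C or T, the sequence mark of the terminal oligopyrimidine (TOP) mRNAs whose translation depends on mTORC1, was annotated for 10 of the 44 (22.7%, against 4.04% of 27305 promoters). Of these 10, EIF2S3, EIF3K and EIF4A2 fell, none rose, and EIF2A, EIF2D, EIF2S3B, EIF3D, EIF3F, EIF3M and EIF4B did not pass. Over all tested genes 19.9% rose and 19.3% fell. Among the 32 tested factors with a promoter sequence but no such start, 6 rose and 6 fell. Of the genes without a promoter sequence, EIF2S2, EIF3E, EIF3G and EIF3L rose and EIF3A fell. The promoter comparisons thus leave out more rises than falls. The median log2 fold change was -0.06 with such a start and -0.03 without. The windows of the 3 that fell are shown, 10 bases before the annotated start and 20 from it on, on the coding strand, with the pyrimidine run in capitals (chrX:24054946-24054975, chr19:38619178-38619207 and chr3:186783567-186783596, all on the plus strand).
EIF2S3: gatttccttcCTCTTTTggcaacatggcgg
EIF3K: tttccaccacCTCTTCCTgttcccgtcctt
EIF4A2: gcgccgctgtCTTTTCagtcgggcgctgag

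The E-box CACGTG, the core bound by MYC and related factors, stood in 11 of the 44 promoters (25.0%, against 7.43% of all). Of the 10 of these genes that were tested, EIF1B rose and EIF3K fell. Of the 32 tested factors with a promoter sequence but no E-box, 5 rose and 8 fell, and over all tested genes 19.9% rose and 19.3% fell. The core of the antioxidant response element, TGACNNNGC searched on both strands, also stood in 11 (25.0%, against 13.6%), and overlapped an E-box in EIF4G1 and EIF5A2. Of the 31 tested factors with a promoter sequence but without this core, 4 rose and 7 fell. Among its 11 carriers, all tested, the called genes were EIF5 and EIF4G3, which rose, and EIF4EBP2, which fell most, and EIF3K, which fell. A match thus went with no one direction. The windows of the first 3 of these genes are shown, read along the coding strand, with the match in capitals (chr14:103334102-103334131 plus, chr1:21111493-21111522 minus and chr10:70404077-70404106 plus). The matches in EIF4G3 and EIF4EBP2 lie on the opposite strand. The start read for EIF4G3 lies inside its GENCODE gene and is not the outermost one.
EIF5: aagatgcgatTGACGTCGCaagcgaaccaa
EIF4G3: tgtcttaaagGCTGTGTCAcctggatagtc
EIF4EBP2: ccgccccgcgGCGACGTCAcctccggccga

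The amino acid response element TGATGNAA, searched on both strands, was in none of the 44 windows and in 3.67% of all promoters. Such matches describe the letters of these windows and are no evidence of binding.

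Among the factors of start codon selection and subunit joining, EIF5 and EIF1B rose, EIF5B fell, and EIF1 (log2 fold change -0.01) and EIF1AX (-0.06) did not pass. The called genes were 60% of these 5, against 39.1% of all tested genes. EIF5 encodes the protein that activates the GTPase of eIF2 at the start codon, on chromosome 14 from 103333544 to 103345025, plus strand (GRCh38, GENCODE v29, as for all gene positions). Its level was 325.9, 329 and 319.9 CPM in shCtrl and 399, 399.8 and 404 CPM in shPRSS22. Every knockdown library was above every control library. This is a log2 fold change of 0.30 (SE 0.0322, adjusted p = 4.62e-09), the largest rise among the called factors. EIF1B, a paralog of the scanning factor EIF1, went from 43.4 ± 0.796 to 49.9 ± 1.90 CPM (0.20, adjusted p = 0.00231).

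EIF5B, the GTPase that joins the large subunit, was at 133.7, 136 and 132 CPM in shCtrl and at 123, 122 and 123 CPM in shPRSS22. The groups did not overlap (log2 fold change -0.12, SE 0.0361, adjusted p = 0.00625), and with limma on log2(TPM + 1) the call was lost (adjusted p = 0.0718). The gene lies on chromosome 2 from 99337353 to 99401326, plus strand, and 10.8% of its exonic bases overlap REV1 on the other strand, whose reads could not be told apart here.

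The 3 subunit genes of eIF2 did not move together: EIF2S1 and EIF2S2 rose and EIF2S3 fell. EIF2S2 (chromosome 20, 34088298 to 34112332, minus strand) was at 321, 312 and 307 CPM in shCtrl and at 374, 365 and 380.2 CPM in shPRSS22. No control library reached the knockdown range, and the log2 fold change was 0.25 (SE 0.0331, adjusted p = 2.69e-07). EIF2S1, whose protein carries the serine phosphorylated under stress, went from 142.7 ± 7.29 to 160.4 ± 3.29 CPM (0.17, adjusted p = 5.96e-04). EIF2S3 (chromosome X, 24054716 to 24077971, plus strand) was at 631, 642 and 638 CPM in shCtrl and at 564, 594 and 571 CPM in shPRSS22, again without overlap (-0.15, SE 0.0333, adjusted p = 7.65e-04).

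On the TPM scale the order of the beta and gamma subunit transcripts turned over. EIF2S2 was at 279, 273.6 and 281 TPM in shCtrl, below EIF2S3 at 319, 323 and 325 TPM, and at 352, 321 and 350.6 TPM in shPRSS22, above EIF2S3 at 292, 294.6 and 293 TPM. The turn was noticed in the data and has no test of its own. It depends on the length correction. In CPM, which has none, EIF2S3 stayed above EIF2S2 in both groups (means 637 and 313 in shCtrl, 576 and 373 in shPRSS22). EIF2S2 shared 22.6% of its 50-base stretches with other genes, mainly the pseudogene EIF2S2P4, and EIF2S3 21.0%, mainly EIF2S3B. With the counts of EIF2S3 and EIF2S3B summed, the log2 fold change of EIF2S3 was -0.15 as before. EIF2A (0.09) and EIF2D (0.07), which can deliver tRNA outside the eIF2 route, and EIF2S3B (-0.25, SE 0.182) did not pass. EIF2A passed when shCtrl replicate 3 was left out (adjusted p = 0.0463), and likewise shPRSS22 replicate 1 (adjusted p = 0.0152).

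Of the 5 subunits of the exchange factor eIF2B, EIF2B2 and EIF2B5 rose and none fell (40% called, against 39.1% of all tested genes). EIF2B2 encodes the beta subunit of the regulatory part, on chromosome 14 from 75002911 to 75012366, plus strand. It was at 28.5, 30.1 and 29.7 CPM in shCtrl and 33.8, 31.8 and 37.1 CPM in shPRSS22. The replicate ranges did not overlap, though shPRSS22 replicate 2 lay close to the highest control (log2 fold change 0.22, SE 0.0630, adjusted p = 0.00628). Without shPRSS22 replicate 3 the log2 fold change was 0.16 and no longer passed (adjusted p = 0.0629), likewise with limma on log2(TPM + 1) (adjusted p = 0.0525), and 23.6% of its exonic bases overlap annotated transcripts on the other strand. EIF2B5, the catalytic epsilon subunit, went from 41.3 ± 1.38 to 47.3 ± 1.94 CPM (0.19, adjusted p = 0.00446). EIF2B1 (0.09), EIF2B3 (-0.05) and EIF2B4 (-0.05) did not pass.

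The eIF3 scaffold was split evenly, with 3 of 14 tested genes higher, 3 lower and 8 that did not pass. That is 21.4% in each direction, near the 19.9% higher and 19.3% lower of all tested genes. EIF3E, the most abundant of them, encodes one of the scaffold's PCI-domain subunits and was at 853, 865.5 and 834 CPM in shCtrl and at 978, 984 and 913 CPM in shPRSS22. All knockdown libraries were above all control libraries (log2 fold change 0.17, SE 0.0354, adjusted p = 2.33e-04). EIF3G, which binds RNA during scanning, went from 113.5 ± 3.13 to 125.0 ± 1.36 CPM (0.14, adjusted p = 0.00352). EIF3L, another PCI-domain subunit gene, went from 635 ± 16.97 to 675 ± 22.2 CPM (0.09, adjusted p = 0.0383). Of its 50-base stretches, 38.4% occur in other annotated genes, chiefly AL022311.1, which overlaps it on the same strand, so its counts are less certain.

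EIF3C fell most within eIF3. This core subunit gene (chromosome 16, 28688558 to 28735730, plus strand) was at 373, 369 and 371 CPM in shCtrl and at 306, 308 and 292 CPM in shPRSS22, with a wide gap between the groups (log2 fold change -0.30, SE 0.0330, adjusted p = 1.10e-08). Of its 50-base stretches, 77.7% also occur in EIF3CL, for which estimated counts gave 3.67, 0 and 6.81 CPM in shCtrl and 0, 2.43 and 3.79 CPM in shPRSS22. With both genes summed the log2 fold change was -0.30 (adjusted p = 7.87e-09). EIF3K fell from 97.4 ± 2.38 to 89.0 ± 4.09 CPM (-0.13, adjusted p = 0.0140) and EIF3A, the largest subunit, from 721 ± 19.2 to 678 ± 14.0 CPM (-0.09, adjusted p = 0.0369).

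The calls of EIF3L, EIF3A and EIF3K depended on which libraries were used. EIF3L did not pass without shCtrl replicate 1 or 3 or shPRSS22 replicate 1 or 2 (adjusted p 0.0672 to 0.147), nor under upper-quartile scaling (adjusted p = 0.0634). EIF3A did not pass without any one of the shCtrl libraries or shPRSS22 replicate 1 or 2 (adjusted p 0.0524 to 0.205), nor with limma on log2(TPM + 1) (adjusted p = 0.133). EIF3K did not pass without shCtrl replicate 1 or 2 or shPRSS22 replicate 3 (adjusted p 0.0516 to 0.0827), nor with DESeq2 (adjusted p = 0.0628). The subunit genes EIF3B (0.02), EIF3I (0.01), EIF3D (-0.01), EIF3F (-0.05), EIF3H (0.07), EIF3J (0.01) and EIF3M (-0.02), did not pass, nor did EIF3CL. EIF3H passed without shPRSS22 replicate 3 (adjusted p = 0.0478).

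**Figure D3:**
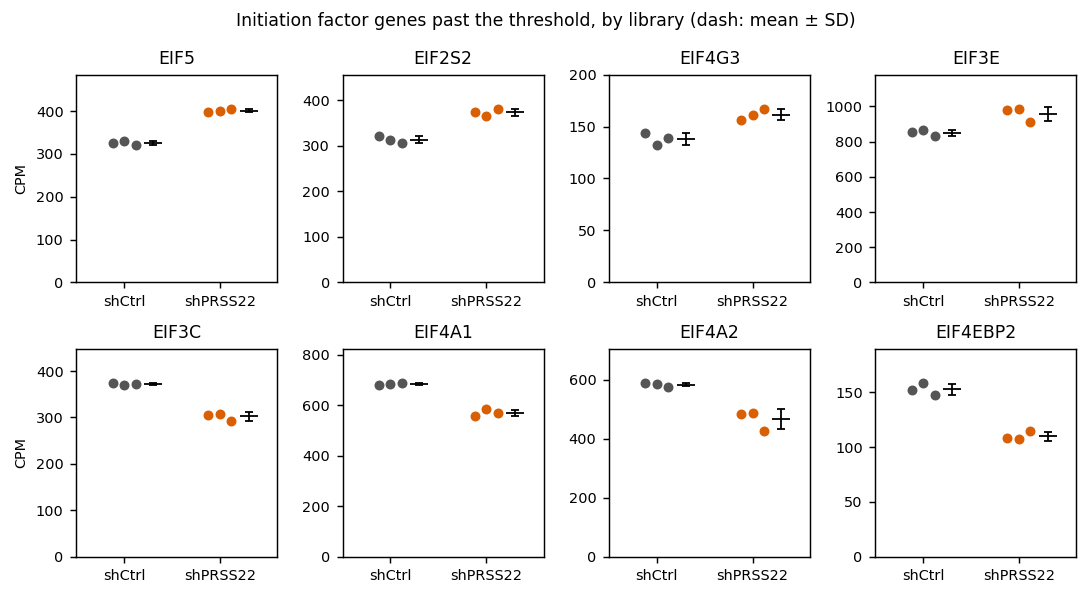
CPM of 8 factors that passed the test, 1 point per library (grey shCtrl, orange shPRSS22) in order of replicate number, on axes that start at 0, with a dash and bar for mean ± SD beside each group. In the upper row (EIF5, EIF2S2, EIF4G3, EIF3E) every knockdown library lies above the controls, and in the lower row (EIF3C, EIF4A1, EIF4A2, EIF4EBP2) every one lies below.

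Within eIF4F and its helpers, both eIF4A helicase genes and EIF4G2 fell, EIF4G3 rose, and 7 of 11 did not pass. The called share was 36.4%, against 39.1% of all tested genes. EIF4A2 (chromosome 3, 186783205 to 186789900, plus strand) was at 588, 587 and 577 CPM in shCtrl and at 485, 487 and 428 CPM in shPRSS22. All knockdown libraries were lower, with replicate 3 lowest (log2 fold change -0.32, SE 0.0395, adjusted p = 2.30e-07). Without that library the log2 fold change was -0.26 (adjusted p = 1.31e-07). EIF4A1 (chromosome 17, 7572706 to 7579005, plus strand) was at 679, 684 and 686 CPM in shCtrl and at 557, 584 and 568 CPM in shPRSS22, likewise without overlap (-0.26, SE 0.0330, adjusted p = 1.29e-07). Of its 50-base stretches, 57.9% occur in other annotated genes, chiefly AC016876.2 (53.1%) and SENP3-EIF4A1 (48.0%). Both overlap EIF4A1 on the same strand, so its counts are less certain. EIF4A1 was named in full after its values were seen.

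EIF4G3 encodes a scaffold paralog of EIF4G1 (chromosome 1, 20806292 to 21176888, minus strand) and was at 143.5, 132 and 139 CPM in shCtrl and at 156, 161 and 167 CPM in shPRSS22. The highest control lay below the lowest knockdown library (log2 fold change 0.22, SE 0.0377, adjusted p = 1.54e-05). EIF4G2 (DAP5), a paralog that lacks the eIF4E-binding part, fell from 855 ± 4.46 to 793 ± 15.1 CPM (-0.11, adjusted p = 0.00850). EIF4G1 itself did not pass (340.1 ± 8.18 and 350.5 ± 1.63 CPM, 0.04, adjusted p = 0.304).

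The cap-binding protein gene EIF4E did not pass, at 143.5, 142 and 152 CPM in shCtrl and 152, 153 and 147 CPM in shPRSS22 (log2 fold change 0.05, SE 0.0367, adjusted p = 0.318). The helicase cofactors EIF4B (-0.08, adjusted p = 0.0850) and EIF4H (0.05) did not pass either, though EIF4B did without shPRSS22 replicate 2 (adjusted p = 0.0122). EIF4E2, a cap-binding paralog that acts in repression, was at -0.08 and passed only with limma on log2(TPM + 1) (-0.20, adjusted p = 0.0258). EIF4E3 (-0.14, SE 0.0719) and the weakly measured EIF4E1B (0.32, SE 0.373) did not pass.

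EIF4EBP2 had the largest change of all called factors. It encodes a repressor that keeps eIF4E from eIF4G, on chromosome 10 from 70404379 to 70428618, plus strand. Its level was 152, 158 and 147.9 CPM in shCtrl and 107.9, 107 and 115 CPM in shPRSS22. Every knockdown library was far below every control (log2 fold change -0.47, SE 0.0385, adjusted p = 1.44e-11), so that it fell by 27.9%. Across the 14 other settings of the test it stayed called, with a log2 fold change from -0.50 to -0.45, and 0.03% of its 50-base stretches occur in other genes. EIF4EBP1, its paralog, was at 57.0, 62.1 and 57.6 CPM in shCtrl and 60.7, 63.6 and 61.5 CPM in shPRSS22 and did not pass (0.07, adjusted p = 0.237). EIF4ENIF1, the transporter that takes eIF4E into the nucleus, did not pass (-0.07).

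EIF5A, the hypusinated factor that helps ribosomes through difficult peptide bonds, was the closest to the threshold of the called genes. It was at 431, 444 and 441 CPM in shCtrl and at 403, 420.4 and 420.0 CPM in shPRSS22 (chromosome 17, 7306999 to 7312463, plus strand). The groups did not overlap (log2 fold change -0.08, SE 0.0330, adjusted p = 0.0494). The call was lost without any one of the shCtrl libraries or shPRSS22 replicate 1 (adjusted p 0.0607 to 0.223), with DESeq2 (adjusted p = 0.0640), under both other filters and with limma on log2(TPM + 1). It held with EIF5AL1, a near copy, added in (adjusted p = 0.0412). EIF5A2 (0.00), EIF5AL1 (-0.18) and EIF6 (-0.07), which keeps the ribosomal subunits apart, did not pass. EIF4A3, an exon junction complex helicase, and EIF1AD, which share the naming but act elsewhere, had log2 fold changes of -0.05 and -0.04 and did not pass.

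Paralogs, some of which differ in role, were then set against each other within each library, which removes any effect of library scaling. The log2 ratio of EIF4EBP1 to EIF4EBP2 counts was -1.41, -1.35 and -1.36 in shCtrl and -0.83, -0.75 and -0.90 in shPRSS22, a difference of 0.55. Corrected for length, EIF4EBP1 transcripts stood at 5.32, 5.46 and 5.43 times EIF4EBP2 in shCtrl and at 7.85, 8.26 and 7.48 times in shPRSS22. The groups were thus clearly apart for this pair. Groups also did not overlap for EIF1 to EIF1B (difference -0.21), EIF4G1 to EIF4G3 (-0.18), EIF4G1 to EIF4G2 (0.15) and EIF4E to EIF4E2 (0.13, and 0.25 from TPM). Single genes did not overlap in 48.6% of all tested, and the share over all gene pairs was not computed. The ratios are not separate from the calls above, since EIF4EBP2, EIF1B, EIF4G3 and EIF4G2 passed alone. The other genes of these pairs did not pass.

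For these 5 of the 7 pairs the exact two-sided permutation test over libraries gave p = 0.1, the smallest that 3 against 3 allows (0.14 after Benjamini-Hochberg adjustment over 7 pairs), so no pair could pass 0.05. EIF4A1 to EIF4A2 (0.06) and EIF5A to EIF5A2 (-0.09) overlapped between groups (exact permutation p = 0.5 each). For EIF4A1 to EIF4A2 the ratio was 0.21, 0.22 and 0.25 in shCtrl and 0.20, 0.26 and 0.41 in shPRSS22, and without shPRSS22 replicate 3 the difference was 0.01.

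**Figure D4:**
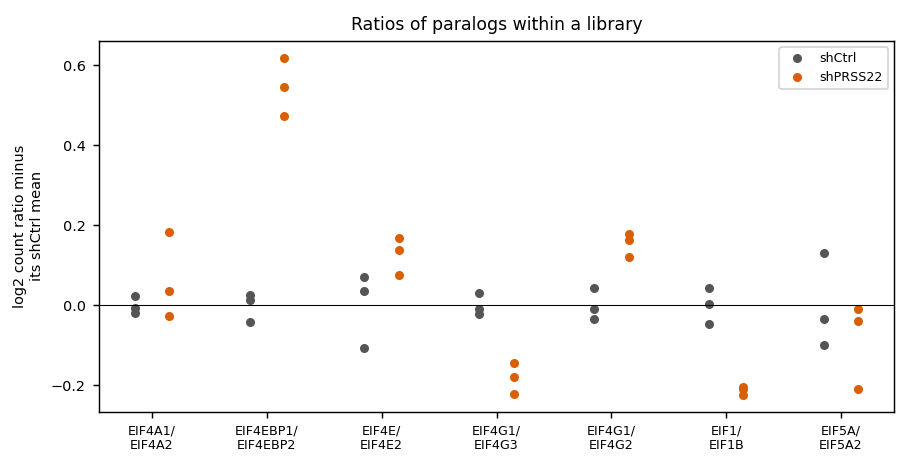
Log2 count ratio of 7 paralog pairs within each library, minus the mean of that ratio in shCtrl, 1 point per library (grey shCtrl, orange shPRSS22). EIF4EBP1/EIF4EBP2 is raised by 0.55 on average in shPRSS22, and the points of both groups overlap for EIF4A1/EIF4A2 and EIF5A/EIF5A2.

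The kinases that phosphorylate the eIF2 alpha subunit and the phosphatase that reverses it were listed together. Of these 10 genes, 6 rose and 2 fell (80% called, against 39.1% of all tested genes; median log2 fold change 0.13), and this list, like those that follow, is described by its counts without a test of its own. PPP1R15B, the constitutive targeting subunit of that phosphatase, went from 244 ± 8.77 to 323 ± 12.1 CPM (0.40, adjusted p = 7.10e-11), and PPP1R15A (GADD34), its stress-induced counterpart, from 94.9 ± 7.16 to 119 ± 6.82 CPM (0.33, adjusted p = 1.10e-05). The phosphatase catalytic subunits split, with PPP1CB (0.12) and PPP1CC (0.15) higher and PPP1CA (-0.13) lower, and NCK1 (0.20), an adaptor, rose. Without shPRSS22 replicate 1 PPP1CA no longer passed (adjusted p = 0.0504). Among the kinases, EIF2AK3 (PERK) rose (0.14), EIF2AK2 (PKR) fell (-0.16, not called with limma on log2(TPM + 1)), and EIF2AK1 (-0.02) and EIF2AK4 (-0.07) did not pass.

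Of 13 genes of mTORC1, MNK and cap control, 2 rose and 1 fell (23.1% called, against 39.1% of all tested genes; median -0.01). The kinase gene RPS6KB1 (0.14) and RHEB (0.13), the GTPase that activates mTORC1, rose, and MLST8 (-0.21), an mTORC1 subunit, fell. MTOR (0.04), RPTOR (-0.01), LARP1 (-0.05) and both MNK genes, MKNK1 (0.01) and MKNK2 (0.05), did not pass. RPS6KB1 was at 0.06 and not called with limma on log2(TPM + 1) (adjusted p = 0.624), RHEB was not called without shCtrl replicate 1 (adjusted p = 0.111), and MLST8 not without shCtrl replicate 2 (adjusted p = 0.188) or shPRSS22 replicate 2 (adjusted p = 0.0645) nor with DESeq2 (adjusted p = 0.130).

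Of 14 genes of poly(A) binding, recycling and non-canonical routes, 3 rose and 5 fell (21.4% higher and 35.7% lower, against 19.9% and 19.3% of all tested genes; median -0.03). PABPC1, the main cytoplasmic poly(A)-binding protein, fell from 2569 ± 44.8 to 2212 ± 92.7 CPM (-0.22, adjusted p = 2.41e-05) and PABPC4 from 245 ± 3.76 to 204 ± 8.79 CPM (-0.26). PAIP1, which bridges PABP to the initiation machinery, rose from 88.3 ± 3.596 to 110.5 ± 4.99 CPM (0.32, adjusted p = 2.62e-07), and PAIP2, a PABP inhibitor, by 0.23. BZW1 (0.15), a competitor of eIF5, also rose, and PAIP2B (-0.19), a paralog of PAIP2, and the nuclear cap-binding genes NCBP1 (-0.17) and NCBP2 (-0.11) fell. ABCE1, MCTS1, DENR, DHX29, DDX3X and BZW2 did not pass.

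Beyond initiation, 4 of 12 tested genes of elongation, release and hypusination rose and 2 fell (33.3% higher and 16.7% lower, against 19.9% and 19.3% of all tested genes; median -0.03), and GSPT2 was too low to test. EEF1E1, a scaffold of the tRNA synthetase complex, rose by 0.40 and the release factor genes ETF1 and GSPT1 by 0.23 and 0.13. DOHH, the hydroxylase that completes hypusine on eIF5A, rose from 5.86 ± 0.572 to 7.80 ± 0.382 CPM (0.41, adjusted p = 0.00814), but was not called without shCtrl replicate 2 (adjusted p = 0.0502) or with DESeq2 (adjusted p = 0.0566). EEF1A2 (-0.38) and EEF1D (-0.14) fell, whereas EEF1A1, EEF1B2, EEF1G, EEF2, EEF2K and DHPS did not pass. Of the 2 mitochondrial initiation factors MTIF2 fell (-0.20, adjusted p = 8.25e-04) and MTIF3 (-0.08) did not pass.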

How the data were processed

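The authors deposited 1 gene table of the 6 libraries, with Entrez identifiers and symbols. Per the file headers, each library has columns of read counts, normalised read counts, TPM and FPKM. The authors' comparison is also in the table, per the file headers, as p-values and q-values beside log2 fold changes. The deposited read counts are estimated counts, since 13 initiation factor genes carry decimals; how reads that fit several genes were divided is not given in the sources used here. The deposited FPKM values and the normalised read counts, a scaled signal, were not used, and TPM values served to compare levels between genes. The submitters' processing notes name RSEM 1.3.1, HISAT2 2.2.1, FastQC 0.12.1, DESeq2 1.4.5, Bowtie2 2.3.4.3, R 4.3.1 and the build GRCh38.p13; their roles are not given in the sources used here. The labels' protocols describe oligo(dT) capture and random priming and no strand marking.

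Here the estimated counts were rounded and tested with edgeR 4.0.16 (R 4.3.3; TMM scaling, filterByExpr, robust quasi-likelihood F test, two-sided), with Benjamini-Hochberg adjustment over 13104 genes. CPM is the count per 1000000 of the TMM-scaled total over tested genes, and SE is the log2 fold change over the root of F. All fold changes are shPRSS22 against shCtrl, and the threshold was an adjusted p of 0.05. Libraries of a group varied by a common coefficient of variation of 2.97% beyond counting noise, and every pair of libraries within a group differed by more than sampling noise (chi-square of 1.80 to 3.05 per gene, where 1 is sampling alone). Paralog ratios were compared by an exact permutation test. Alternatives were other scalings and filters, DESeq2 1.42.0, limma 3.58.1 on log2(TPM + 1), summing near-identical pairs, a replicate block and leaving out each library.

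Every factor that passed was named, with values in each library for the 3 largest rises and falls and for up to 1 rise and 1 fall per role; from the other lists, at most 2 in each direction were to be named, and further members were named after their values were seen. The members and lists were chosen with earlier results of these data known. Gene positions, exon overlaps and shared stretches of 50 bases come from GENCODE v29 (GRCh38), and promoters from RefSeq (GRCh38.p14). Procedures were tested on simulated data.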

Additional observations from a re-analysis of the deposited data

How the results depend on the processing

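The counts of 10 factors higher and 10 lower stayed within 1.5 times under all 14 settings, from 9 to 12 higher and from 7 to 11 lower, and no log2 fold change of a called factor changed sign. Of the called factors, 8 that were higher and 6 that were lower kept their call in every setting; the exceptions are given beside each gene. The fit with the replicate number as a block called 12 factors higher and 11 lower, including the 20 called without it, and added EIF2A, EIF3H and EIF4B. Libraries with the same number correlated at 0.0842, 0.0939 and 0.196 in their deviations from the group means; each correlated best with its own number, a hint from the data, not the design. As the labels tie the numbers to nothing shared, they were not taken to pair the libraries. DESeq2 called 10 higher and 8 lower, and limma on log2(TPM + 1) called 9 and 8. Leaving out 1 library each gave 9 to 10 higher and 7 to 10 lower. Over all genes DESeq2 called 1886 higher and 1726 lower, against 2603 and 2523. All-gene calls thus fell more under DESeq2 than factor calls did, and the near-equal shares of the main test did not hold there. The standard error of a log2 fold change was at least 0.0322 for the tested factors, which limits how small a change could be called.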
